A study of Mus musculus with 10 samples.

Results

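The mitosis genes described here are 41 genes whose products enter, run or end cell division, chosen by name for their known roles: Cdk1 and its cyclins, the transcription factor Foxm1, the Aurora and Polo kinases, the chromosomal passenger complex, the spindle checkpoint, the kinetochore, the mitotic motors, the cytokinesis machinery, the anaphase-promoting complex (APC/C) with its targets, and Top2a and Mki67. The choice was made with earlier results of these data known. All 41 were found among the 24411 genes of the files, and they lie on 16 mouse chromosomes. They were followed in 10 RNA-seq libraries of 4 groups: BV2 cells with EPZ-6438 and LPS (n = 2), BV2 cells with EPZ-6438 alone (n = 2), primary microglia with EPZ-6438 and LPS (n = 3), and primary microglia with EPZ-6438 alone (n = 3). All 4 groups thus carried EPZ-6438, which blocks EZH2, the enzyme that methylates lysine 27 of histone H3, at 10 uM for 4 hours, and "with LPS" and "without LPS" below mean in addition to it. LPS, a bacterial cell wall product sensed by Toll-like receptor 4, was given at 10 ng/ml. Libraries without the inhibitor were not analysed here. The primary microglia were shaken off mixed glial cultures that had been made from the pooled brains of 12 ICR mice aged 3 days and kept for 2 weeks, and more than 92% of the cells were CD11b-positive by flow cytometry, per the labels. BV2 is an immortalised mouse microglial cell line, so both BV2 groups stand for 1 line, and it was grown in a different medium and serum content from the primary cells. Whether the replicates of a group were grown separately is not stated in the labels. The p-values therefore reflect only how far these libraries differ, and that spread may be technical.

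Mitosis begins when Cdk1, bound to cyclins A and B, phosphorylates its targets, and it ends when the APC/C, activated by Cdc20, marks cyclin B and securin for destruction and thereby frees separase to cut the rings that hold sister chromatids together. Most of the genes are transcribed in bursts that peak in late S, G2 and M phase, are held down by the DREAM complex in resting cells and are switched on by the MuvB complex with Mybl2 and Foxm1, so their mRNA in a bulk sample is widely used as a readout of cycling cells. Microglia divide slowly in the healthy adult brain and more in the newborn brain and in culture with growth factors, whereas BV2 cells carry viral oncogenes and divide continuously.

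Gene counts per library came to 2750988 to 3684012, and a count of 0 allows a level of up to 0.845 to 1.23 CPM, that is, counts scaled to a common library total, counting error only. The ribosomal precursor Rn45s took 15.7% to 51.7% of these counts. Levels are CPM on library sizes scaled by TMM, a method that aligns the bulk of genes between libraries. Replicate 1 of primary microglia with LPS stood apart from the other libraries of its group: the chi-square of its counts against replicates 2 and 3 was 68.9 and 74.6 per degree of freedom, against 2.81 between replicates 2 and 3, and Rn45s took 43.7% of its counts, against 15.7% and 16.0% in those replicates. Rn45s was among the counts of this chi-square, so the chi-square and the Rn45s share are not separate signs. In primary microglia without LPS Rn45s took 50.3%, 51.7% and 40.9% of the counts. In that share replicate 1 with LPS was thus near the libraries without LPS, and replicates 2 and 3 lay below them. Calls, sums, orders and list counts that rest on it are therefore also given without it where stated, but the sums of cell type markers are given only with it.

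A stretch upstream of the start is shown for 6 of the genes, because these motifs are in most, though not all, of the members with a promoter window. In mammals, TTTGAA is the core of the cell cycle genes homology region, the element that MuvB binds, and CCAAT is bound by NF-Y, a factor found at many mitotic promoters. Sequences are RefSeq promoter windows on GRCm38.p6, written 5′ to 3′ along the gene's strand and ending at the start (for Ube2c the last 2 bases are left off), and capitals mark TTTGAA and CCAAT, or their reverse complements TTCAAA and ATTGG.
Cdk1, chr10:69352913-69353042, minus strand: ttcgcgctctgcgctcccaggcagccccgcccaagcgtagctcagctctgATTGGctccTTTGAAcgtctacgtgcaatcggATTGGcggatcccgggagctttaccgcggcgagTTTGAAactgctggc
Ccnb2, chr9:70421555-70421684, minus strand: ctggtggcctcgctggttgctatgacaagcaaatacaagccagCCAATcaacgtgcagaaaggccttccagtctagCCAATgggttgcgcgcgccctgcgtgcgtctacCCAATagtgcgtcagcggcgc
Ube2c, chr2:164769799-164769926, plus strand: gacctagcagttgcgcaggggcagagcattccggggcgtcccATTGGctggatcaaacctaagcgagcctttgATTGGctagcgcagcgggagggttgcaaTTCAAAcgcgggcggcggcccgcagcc
Kif11, chr19:37376282-37376381, plus strand: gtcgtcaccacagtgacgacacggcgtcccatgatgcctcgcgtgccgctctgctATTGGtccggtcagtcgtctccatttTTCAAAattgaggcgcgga
Espl1, chr15:102296193-102296292, plus strand: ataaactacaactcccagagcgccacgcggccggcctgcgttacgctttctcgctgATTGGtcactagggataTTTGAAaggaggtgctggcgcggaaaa
Mki67, chr7:135716380-135716579, minus strand: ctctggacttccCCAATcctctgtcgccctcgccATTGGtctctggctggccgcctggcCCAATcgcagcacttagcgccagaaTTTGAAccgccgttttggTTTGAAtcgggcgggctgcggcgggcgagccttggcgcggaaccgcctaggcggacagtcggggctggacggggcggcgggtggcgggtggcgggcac
Cdk1 and Ccnb2 stand for the kinase and its cyclins, Ube2c and Kif11 for genes high in BV2 cells, and Espl1 and Mki67 for genes called lower and higher with LPS in primary microglia. In the Cdk1 stretch TTTGAA begins 71 and 15 bases before the start, and in the Mki67 stretch 116 and 98 bases before it. The Ccnb2 stretch holds 3 CCAAT boxes, beginning 87, 54 and 21 bases before the start, and its nearest TTTGAA begins 5 bases after the start, outside the letters shown.

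Promoter windows, from 250 bases before to 50 bases after the start, were matched for 34 of the 41 genes, and both strands were searched. TTTGAA was in the windows of 26 of 34 members (76.5%), against 20.2% of the 27025 genes with a window and 13.8% of the 8858 genes with a window that were tested between the cell types. A TTTGAA within 60 bases of the start was in 24 of 34 members (70.6%), against 6.36% of all genes with a window. CCAAT was in 26 of 34 members (76.5%), against 41.1% of all genes with a window, and at least 2 CCAAT were in 18 (52.9%), against 13.3%. Both motifs were in 23 members (67.6%), against 7.97%. Boxes on opposite strands can share letters and were counted separately, as in Ube2c, where CCAAT begins 186 bases before the start and its reverse complement 183 bases before it. A match describes letters only, and the shares bear on no factor's binding. Birc5, Mad2l1, Nuf2, Nusap1 and Pttg1 had neither motif in the window used. The 23 members with both motifs had a median log2 difference between BV2 cells and primary microglia without LPS of 4.35, with a range of 2.19 to 6.61, and the 5 members with neither had a median of 3.66, with a range of 2.83 to 5.56, so the ranges overlapped.

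The comparison of BV2 cells with primary microglia asks how a dividing line and cultured primary cells differ at the same treatment. Without LPS all 41 mitosis genes were higher in BV2 cells, against 32.5% of all 11626 genes called higher and 74.1% called in either direction. With LPS 40 of 41 were higher, against 30.7% of all genes called higher and 73.8% in either direction, and the exception was Mki67. The median member was higher by 4.83 on the log2 scale with LPS, where the median of all genes was -0.29, and by 4.28 without LPS, where the median of all genes was -0.23. Among all genes tested, 38 members with LPS and 37 without LPS lay above the percentile 95 of the differences. These calls are from edgeR's quasi-likelihood test, with Benjamini-Hochberg adjusted p under 0.05 over all genes. None was called lower, against 43.1% of all genes with LPS and 41.5% without LPS. The BV2 libraries lay wholly above the primary libraries for 40 members with LPS (33.7% of all genes) and 41 without LPS (37.2%), and wholly below for none (46.4% of all genes with LPS and 46.9% without LPS). Without a filter on low counts the numbers called higher were also 40 with LPS and 41 without LPS. With the filter, 27 members did not pass in the primary libraries alone. They entered only with the BV2 libraries included, the groups where they are high. The percentiles and the counts of libraries wholly above include these 27 members and were not made without the filter.

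Summed over the 41 genes, levels were 3222 and 3423 CPM in BV2 cells with LPS and 3326 and 3352 CPM in BV2 cells without LPS, against 177 to 194 CPM in primary microglia with LPS and 149 to 184 CPM in primary microglia without LPS. The summed mean was 17.8-fold higher in BV2 cells with LPS (18.2-fold without replicate 1 of primary microglia with LPS) and 19.9-fold higher without LPS. The cell types did not overlap in any library. In such bulk samples, fewer cycling cells and less mitotic mRNA per cycling cell cannot be told apart. The primary cultures also held mRNA of other brain cells: 9 astrocyte markers summed to 885 to 1558 CPM in primary microglia with LPS and 872 to 1457 CPM without LPS, whereas in BV2 cells with LPS 8 of the 9 were at 0 and in BV2 cells without LPS 7 of the 9. Which cells the mitotic mRNA of the primary cultures came from was not tested.

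**Figure D1:**
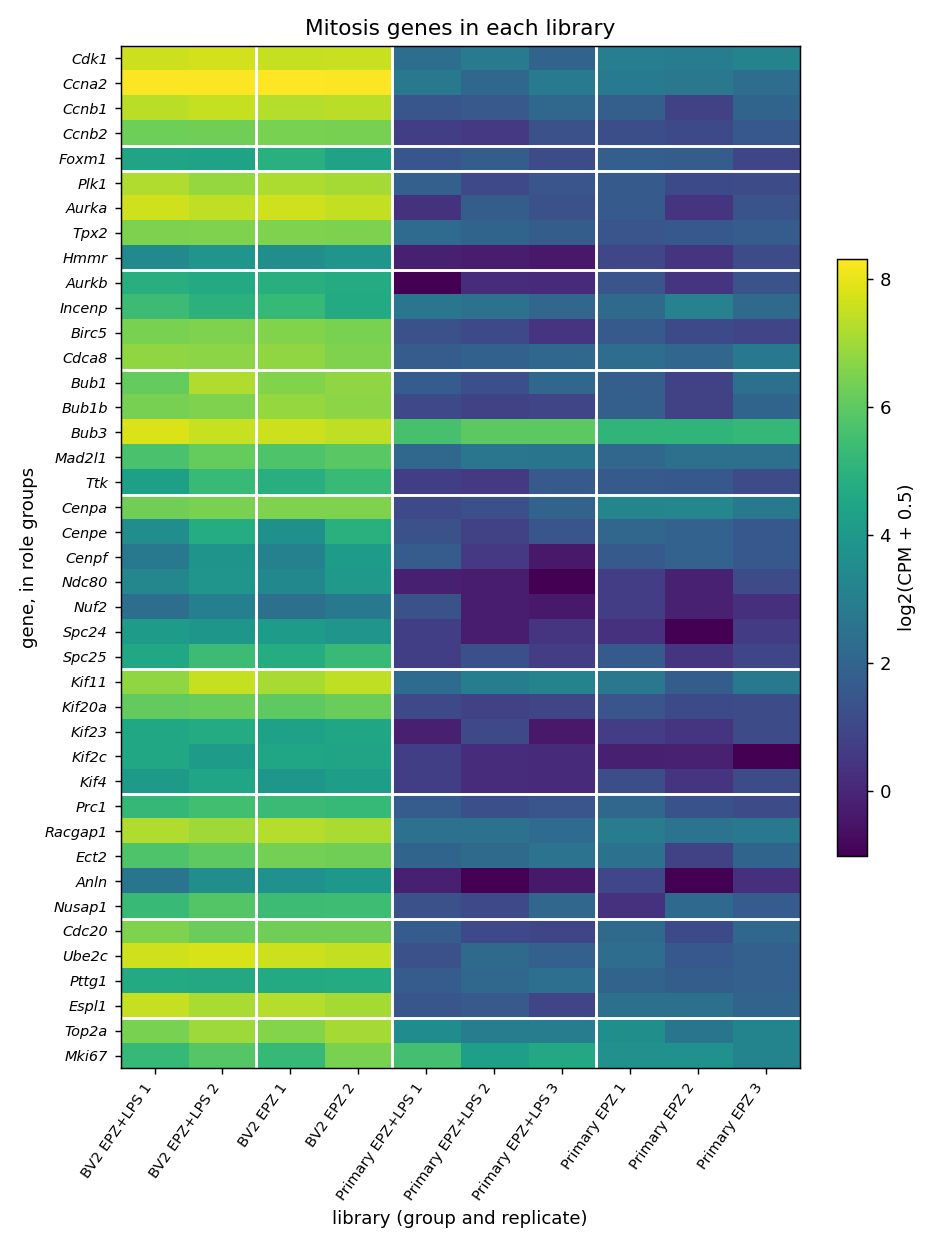
Level of each of the 41 mitosis genes, as log2(CPM + 0.5) by colour, in the 10 libraries. Columns are libraries by group and replicate, and white lines separate the groups and the role groups of genes. The 4 BV2 columns are brighter than the 6 primary columns for all genes but Mki67, where replicate 1 of primary microglia with LPS lies between the BV2 libraries, and Bub3 is the brightest gene of the primary columns.

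The cyclins were among the members with the greatest differences, and Cdk1 was nearer to the median member. Ccna2 encodes cyclin A2, which serves Cdk2 in S phase and Cdk1 at the entry into mitosis, and had 306 and 309.9 CPM in BV2 cells with LPS and 319.7 and 306 CPM in BV2 cells without LPS, against 6.27, 3.83 and 6.80 CPM in primary microglia with LPS and 6.74, 6.13 and 4.57 CPM in primary microglia without LPS. Every BV2 library was far above every primary library, and the log2 difference was 5.76 ± 0.18 (SE) with LPS and 5.75 ± 0.18 without LPS (adjusted p = 3.40e-20 and 1.22e-19, edgeR). Cdk1, the kinase itself, had 197 and 204 CPM in BV2 cells with LPS and 179 and 184 CPM in BV2 cells without LPS, against 4.70, 6.70 and 3.40 CPM in primary microglia with LPS and 7.49, 6.95 and 8.80 CPM in primary microglia without LPS. Its difference was 5.35 ± 0.19 with LPS and 4.54 ± 0.18 without LPS, on the log2 scale. Ccnb1, the B-type cyclin that activates Cdk1 at mitotic entry, had 165 and 180.3 CPM in BV2 cells with LPS and 156 and 164 CPM in BV2 cells without LPS, against 2.35, 2.55 and 3.97 CPM in primary microglia with LPS and 3.00, 1.23 and 3.52 CPM in primary microglia without LPS. Ccnb1 was higher in BV2 cells by 5.82 ± 0.21 with LPS and 5.90 ± 0.22 without LPS on the log2 scale, from 3 to 14 counts in each primary library. Ccnb2, the second B-type cyclin, was higher in BV2 cells by 5.75 with LPS and 5.38 without LPS on the log2 scale.

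Foxm1, the forkhead factor that switches on G2 and M phase genes, had 21.1 and 20.0 CPM in BV2 cells with LPS and 29.9 and 20.2 CPM in BV2 cells without LPS, against 2.35, 2.87 and 1.70 CPM in primary microglia with LPS and 3.00, 2.86 and 1.41 CPM in primary microglia without LPS. It was higher in BV2 cells by 3.15 ± 0.33 with LPS and 3.37 ± 0.33 without LPS on the log2 scale, less than the median member in both comparisons. Aurora A, the product of Aurka, works at spindle poles. Aurka had 200.1 and 170.2 CPM in BV2 cells with LPS and 202 and 175 CPM in BV2 cells without LPS, against 0.783, 2.87 and 1.98 CPM in primary microglia with LPS and 2.62, 0.818 and 2.11 CPM in primary microglia without LPS. Its log2 difference, 6.54 ± 0.24 with LPS and 6.61 ± 0.25 without LPS, was the largest fitted among the 41 genes in both comparisons, from 2 to 9 counts in each primary library. Plk1, the Polo kinase, was higher by 5.82 with LPS and 6.08 without LPS, and Tpx2, which activates Aurora A on microtubules, by 4.69 and 5.15. Hmmr, a spindle assembly factor, had only 3 counts over the primary libraries with LPS, and its level was 38.1-fold higher in BV2 cells with LPS (95% counting interval 12.6 to 189).

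The chromosomal passenger complex corrects faulty attachments of chromosomes to the spindle and later steers cytokinesis. Birc5, or survivin, its targeting subunit, had 86.3 and 92.1 CPM in BV2 cells with LPS and 94.8 and 86.6 CPM in BV2 cells without LPS, against 1.96, 1.59 and 0.851 CPM in primary microglia with LPS and 2.62, 1.64 and 1.41 CPM in primary microglia without LPS. The groups were far apart, with log2 differences of 5.94 ± 0.25 with LPS and 5.56 ± 0.24 without LPS. Cdca8, or borealin, was higher by 4.97 with LPS and 4.35 without LPS, and the kinase subunit Aurkb by 5.84 and 3.95. The scaffold subunit Incenp differed less, by 2.91 with LPS and 2.53 without LPS.

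The spindle checkpoint delays anaphase until every chromosome is attached. Bub3, which binds phosphorylated kinetochores and brings in Bub1 and Bub1b, was the most abundant member in primary microglia, with 225 and 183 CPM in BV2 cells with LPS and 193 and 171 CPM in BV2 cells without LPS, against 48.6, 62.5 and 62.1 CPM in primary microglia with LPS and 34.1, 33.5 and 36.9 CPM in primary microglia without LPS. It was higher in BV2 cells by only 1.81 ± 0.14 with LPS and 2.38 ± 0.15 without LPS on the log2 scale. Bub1b, the checkpoint protein BubR1, had 84.6 and 90.4 CPM in BV2 cells with LPS and 114 and 103 CPM in BV2 cells without LPS, against 1.57, 1.28 and 1.42 CPM in primary microglia with LPS and 3.00, 1.23 and 3.52 CPM in primary microglia without LPS. The difference of Bub1b, 5.91 with LPS and 5.34 without LPS, was far above that of Bub3. Bub1 was higher by 5.25 with LPS and 5.00 without LPS, the checkpoint kinase Ttk by 4.12 and 3.86, and Mad2l1, which forms the inhibitor of Cdc20, by 3.49 and 3.66.

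Cenpa, the histone H3 variant that marks the centromere, had 78.2 and 86.2 CPM in BV2 cells with LPS and 91.1 and 90.9 CPM in BV2 cells without LPS, against 1.57, 1.91 and 3.40 CPM in primary microglia with LPS and 8.99, 9.40 and 6.33 CPM in primary microglia without LPS. Its log2 difference was 5.09 ± 0.24 with LPS and 3.47 ± 0.20 without LPS. Ndc80, Nuf2, Spc24 and Spc25 encode the 4 subunits of the outer kinetochore complex that grips microtubules. Their group means were 6.15 to 32.3 CPM in BV2 cells with LPS and 5.63 to 32.4 CPM in BV2 cells without LPS. In primary microglia their group means were 0.237 to 1.41 CPM with LPS and 0.602 to 1.62 CPM without LPS. Ndc80 had 2 counts over the primary libraries with LPS and was 55.1-fold higher in BV2 cells with LPS, with a counting interval of 14.7 to 463. Cenpf, a large kinetochore protein, had the smallest difference without LPS, 2.19 ± 0.48, against 3.03 ± 0.56 with LPS, and the kinetochore motor Cenpe differed by 3.37 with LPS and 2.70 without LPS.

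Among the motors, Kif11, which pushes spindle poles apart, had 108 and 182 CPM in BV2 cells with LPS and 137 and 173 CPM in BV2 cells without LPS, against 4.31, 7.02 and 8.51 CPM in primary microglia with LPS and 5.99, 2.86 and 6.33 CPM in primary microglia without LPS. Its log2 difference was 4.41 ± 0.27 with LPS and 4.90 ± 0.29 without LPS. Kif20a, Kif23 and Kif4, which act at the central spindle and on chromosome arms, were higher in BV2 cells by 5.57, 4.95 and 4.59 with LPS and by 5.16, 4.01 and 3.41 without LPS. Kif2c, a microtubule depolymerase, had 2 counts over the primary libraries without LPS and was 86.2-fold higher in BV2 cells without LPS, with a counting interval of 23.4 to 719. Racgap1, which with Kif23 forms the centralspindlin complex, had 149 and 125 CPM in BV2 cells with LPS and 157 and 139 CPM in BV2 cells without LPS, against 5.09, 5.10 and 4.25 CPM in primary microglia with LPS and 7.12, 5.31 and 6.33 CPM in primary microglia without LPS. Ect2, the exchange factor that activates RhoA at the cleavage furrow, had 53.4 and 63.4 CPM in BV2 cells with LPS and 82.0 and 78.7 CPM in BV2 cells without LPS, against 3.53, 4.15 and 5.39 CPM in primary microglia with LPS and 5.24, 1.23 and 3.52 CPM in primary microglia without LPS. Both genes separated the cell types without overlap, by 4.83 and 3.71 with LPS and by 4.55 and 4.55 without LPS. Prc1, which bundles midzone microtubules, differed by 4.14 with LPS and 3.94 without LPS, and Nusap1, another microtubule bundler, by 4.24 and 4.04. Anln, the scaffold of the contractile ring, had 2 counts over the primary libraries with LPS and was 40.9-fold higher in BV2 cells with LPS, with a counting interval of 10.8 to 346.

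Ube2c, the ubiquitin-conjugating enzyme of the APC/C, had 201 and 215 CPM in BV2 cells with LPS and 196 and 175 CPM in BV2 cells without LPS, against 1.96, 4.15 and 3.12 CPM in primary microglia with LPS and 4.50, 2.45 and 3.17 CPM in primary microglia without LPS. The difference, 6.03 ± 0.20 with LPS and 5.76 ± 0.21 without LPS, was among the greatest of the members. Separase, which cuts cohesin at anaphase, is encoded by Espl1, which had 179 and 139.7 CPM in BV2 cells with LPS and 156 and 135 CPM in BV2 cells without LPS, against 2.35, 2.55 and 1.42 CPM in primary microglia with LPS and 4.87, 4.91 and 3.52 CPM in primary microglia without LPS, and differed by 6.24 ± 0.23 with LPS and 5.03 ± 0.21 without LPS. Cdc20, the activator of the APC/C, differed by 5.45 with LPS and 4.56 without LPS. Pttg1, the separase inhibitor securin, differed by only 2.66 with LPS and 3.03 without LPS. Top2a, the topoisomerase that untangles sister chromatids, had 86.3 and 123 CPM in BV2 cells with LPS and 95.4 and 135 CPM in BV2 cells without LPS, against 11.0, 7.02 and 7.09 CPM in primary microglia with LPS and 12.0, 5.72 and 8.80 CPM in primary microglia without LPS, a log2 difference of 3.67 ± 0.24 with LPS and 3.69 ± 0.25 without LPS.

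Mki67, which encodes the proliferation marker Ki-67 of the chromosome surface, stood out from the other members. It had 37.3 and 58.0 CPM in BV2 cells with LPS and 37.4 and 86.9 CPM in BV2 cells without LPS, against 46.2, 18.8 and 24.1 CPM in primary microglia with LPS and 12.7, 12.7 and 8.80 CPM in primary microglia without LPS. With LPS the highest primary library lay between the BV2 libraries, so the groups overlapped, and the log2 difference of 0.72 ± 0.49 was not called (adjusted p = 0.221, edgeR). Without that primary library, the replicate 1 that stood apart, it was 1.20 and still not called (adjusted p = 0.0553). Without LPS the groups did not overlap and Mki67 was higher in BV2 cells by 2.45 ± 0.54 (adjusted p = 0.00474).

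**Figure D2:**
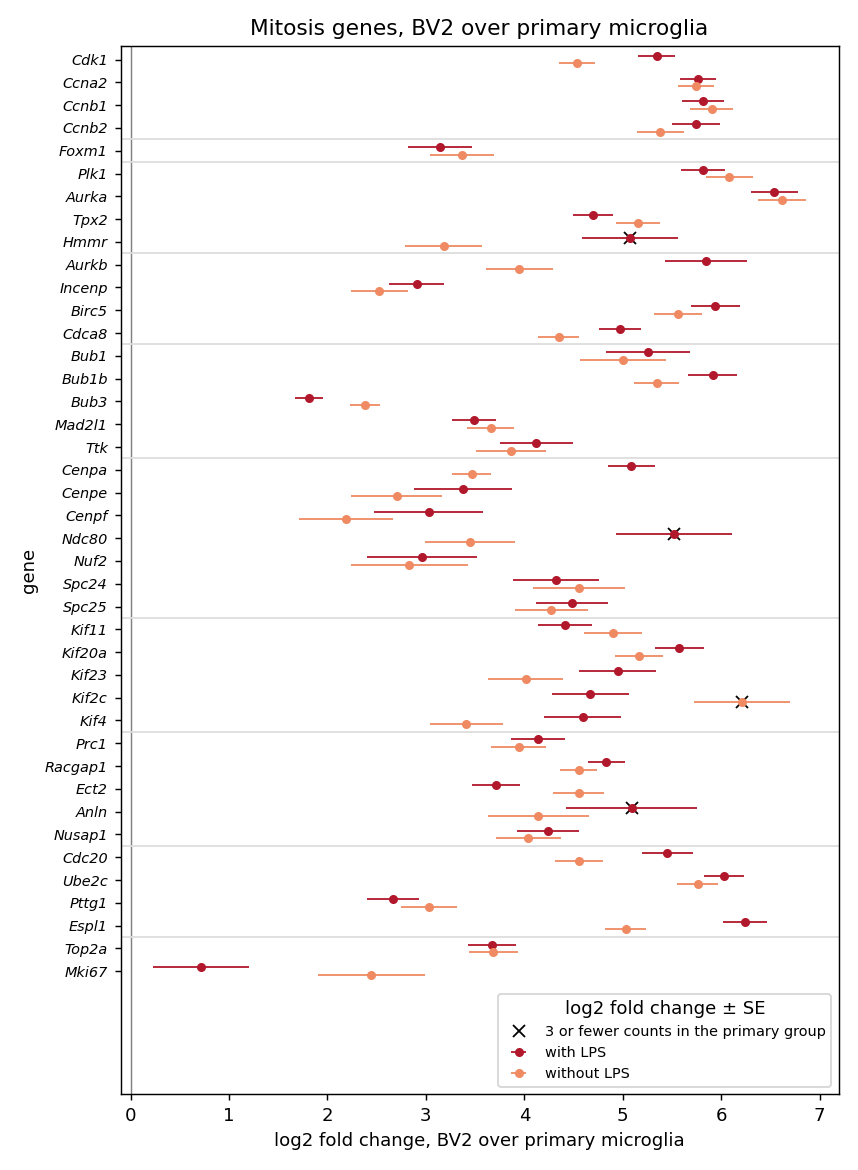
Fitted log2 fold change of BV2 cells over primary microglia for each mitosis gene, with its standard error, with LPS (dark red) and without LPS (orange), from the fit of all 10 libraries. Points right of 0 are higher in BV2 cells, and a cross marks a fold that rests on 3 or fewer counts in the primary group. All points lie right of 0, from 0.72 for Mki67 with LPS to 6.61 for Aurka without LPS.

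Levels of different genes were compared only per kilobase of exon, as CPM divided by the union of the gene's exons in GENCODE M21. In BV2 cells the 6 highest means with LPS were those of Ube2c (79.9 ± 3.87 CPM per kilobase, SD, n = 2), Ccna2 (75.5), Aurka (73.1), Plk1 (59.6), Ccnb2 (50.8) and Cdc20 (44.4). Without LPS they were those of Ccna2 (76.6 ± 2.43), Aurka (74.5), Ube2c (71.5), Plk1 (63.3), Ccnb2 (55.7) and Cdc20 (41.7). The ranges of Ccna2, Aurka and Ube2c overlapped without LPS, and with LPS that of Aurka overlapped those of Ube2c and Ccna2 and that of Cdc20 those of Ccnb1 and Cdk1, so these neighbours do not differ beyond their spread. The lowest in both BV2 groups were Cenpf, Nuf2, Anln and Ndc80, at 0.645 to 1.81 CPM per kilobase with LPS and 0.83 to 1.97 without LPS. In primary microglia Bub3 led both groups, at 8.24 ± 1.13 CPM per kilobase with LPS and 4.97 ± 0.262 without LPS (SD, n = 3 each). Mki67 had the next mean with LPS, at 2.95 ± 1.45, but overlapped Pttg1, at 1.90, and without replicate 1 it was level with it, at 2.13 against 2.16. Without LPS Mki67 stood at rank 10, at 1.13 ± 0.224. Below Bub3 the order of primary microglia without LPS is not resolved, since Cdc20 (1.72 ± 0.733), Cdk1 (1.57 ± 0.192), Pttg1 (1.57 ± 0.128) and Ccna2 (1.42 ± 0.274) overlapped.

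LPS was set against no LPS within primary microglia to ask what the stimulus does while EZH2 is inhibited. In primary microglia 14 of the 41 members had enough counts to be tested in this comparison, and of these 2 were called higher and 2 lower, against 39.2% of all 10664 genes tested, 21.4% higher and 17.8% lower. The share called among members is thus no greater than among genes at large. Members were measured less closely, with a median SE of 0.348 against 0.215 for all genes. The shares therefore do not compare the size of their responses. The median member tested was -0.12 on the log2 scale and the median gene -0.03. Bub3 and Mki67 rose and Cenpa and Espl1 fell. Without replicate 1 of primary microglia with LPS, the library that stood apart, the same 4 genes were called, 2 higher and 2 lower of 19 members tested, against 48.3% of all genes.

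Bub3 had 48.6, 62.5 and 62.1 CPM in primary microglia with LPS, against 34.1, 33.5 and 36.9 CPM without LPS, or 57.7 ± 7.93 and 34.9 ± 1.84 CPM (mean ± SD, n = 3 each). All 3 LPS libraries were above all 3 others, and Bub3 rose by 0.72 ± 0.15 on the log2 scale (adjusted p = 6.36e-04, edgeR). The gene lies on chromosome 7 (GRCm38 131560222 to 131571895, plus strand) and overlaps Fgfr2 on the other strand, from which the stranded counting separates it. Leaving out any library kept its change between 0.67 and 0.83, with adjusted p of at most 0.00655.

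Mki67 had 46.2, 18.8 and 24.1 CPM in primary microglia with LPS, against 12.7, 12.7 and 8.80 CPM without LPS, from 118, 59 and 85 counts with LPS and 34, 31 and 25 counts without LPS. The groups did not overlap, and Mki67 rose by 1.35 ± 0.35 on the log2 scale (adjusted p = 0.0116, edgeR). The highest value was that of replicate 1 with LPS, the library that stood apart. Mki67 lies on chromosome 7 (135689784 to 135716361, minus strand) and is long, with 10061 exon bases, and replicate 1 was also the library in which long genes were high. Across 11212 genes its log2 level relative to its group's mean rose by 0.11 for each doubling of exon length, against -0.07 and -0.04 in replicates 2 and 3. Without that replicate the change of Mki67 was 0.92 (adjusted p = 2.33e-04), so the call does not rest on it. Without replicate 3 of primary microglia without LPS it was 1.19 and not called (adjusted p = 0.0647).

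Cenpa had 1.57, 1.91 and 3.40 CPM in primary microglia with LPS, against 8.99, 9.40 and 6.33 CPM without LPS, from 4, 6 and 12 counts with LPS and 24, 23 and 18 counts without LPS. The groups did not overlap, and Cenpa fell by 1.78 on the log2 scale (SE 0.36, adjusted p = 6.34e-04, edgeR). Espl1 had 2.35, 2.55 and 1.42 CPM in primary microglia with LPS, against 4.87, 4.91 and 3.52 CPM without LPS, from 6, 8 and 5 counts with LPS and 13, 12 and 10 counts without LPS. The groups did not overlap here either, and Espl1 fell by 1.09 on the log2 scale (SE 0.41, adjusted p = 0.0419). This call was lost without replicate 1 (adjusted p = 0.131) or replicate 2 (0.121) of primary microglia without LPS, and without replicate 2 (0.0545) or replicate 3 (0.177) of primary microglia with LPS. It was also lost in DESeq2 (adjusted p = 0.190), with no filter on low counts (0.0701) and with a filter at 1 CPM (0.0515). Cenpa lies on chromosome 5 (30666777 to 30674830, plus strand) and Espl1 on chromosome 15 (102296266 to 102324357, plus strand).

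Cdk1 had 4.70, 6.70 and 3.40 CPM in primary microglia with LPS, against 7.49, 6.95 and 8.80 CPM without LPS. Every library with LPS was below every library without LPS, but the change of -0.67 ± 0.31 on the log2 scale was not called (adjusted p = 0.099). In the tested members the LPS libraries lay wholly above the others for 2 (26.6% of all genes tested) and wholly below for 4 (22.4%). Top2a had 11.0, 7.02 and 7.09 CPM in primary microglia with LPS, against 12.0, 5.72 and 8.80 CPM without LPS, and these values overlapped. Ccna2 and Kif11 also overlapped between the groups, with 6.27, 3.83 and 6.80 and 4.31, 7.02 and 8.51 CPM with LPS, against 6.74, 6.13 and 4.57 and 5.99, 2.86 and 6.33 CPM without LPS.

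**Figure D3:**
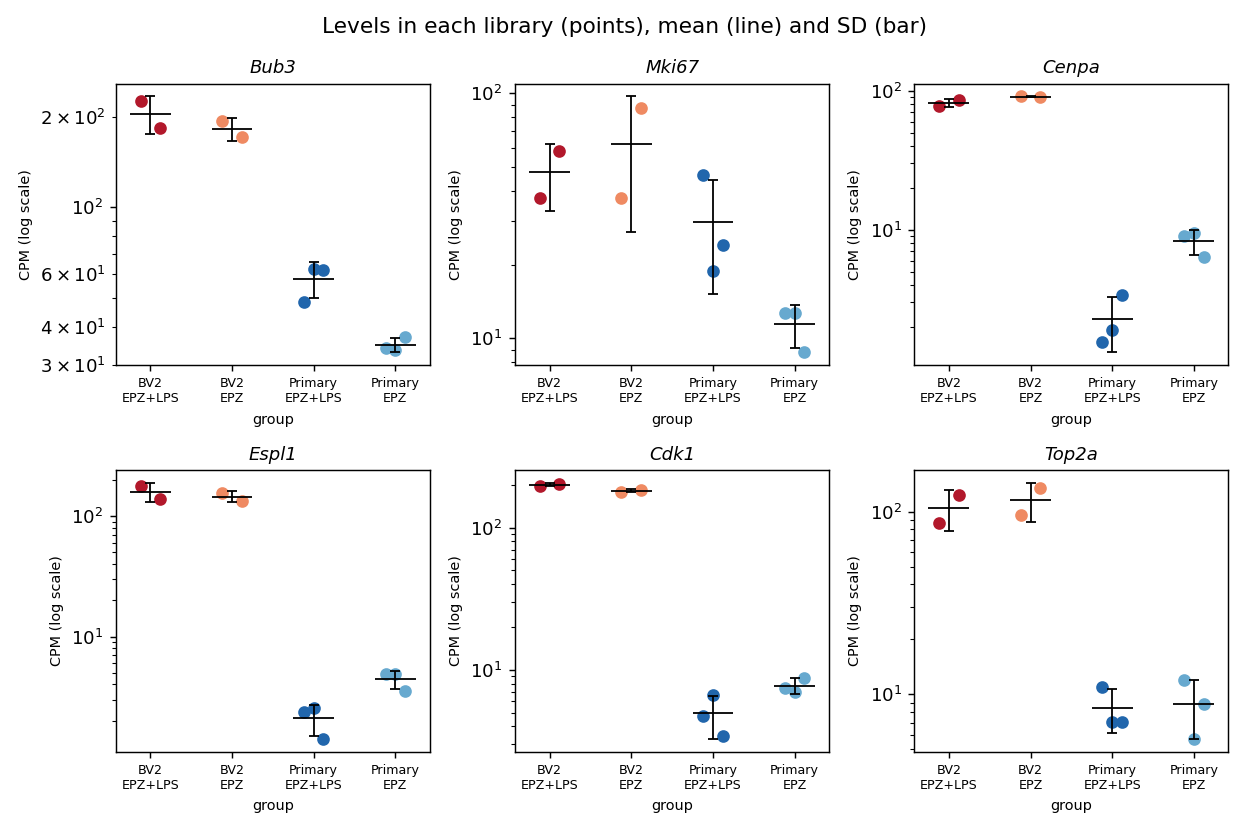
CPM on a log axis of 6 mitosis genes in each library (points) of the 4 groups, with group means (lines) and SD (bars). Bub3 and Mki67 sit higher, and Cenpa and Espl1 lower, in primary microglia with LPS than without LPS with no overlap, and Cdk1 also shows no overlap, while Top2a overlaps. In the BV2 panels only Cdk1 has its LPS libraries wholly above and Cenpa its LPS libraries wholly below those without LPS.

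The other 27 members had at most 17 counts in any primary library and were not tested there. Together they summed to 39.2 to 46.2 CPM in primary microglia with LPS (397 counts) and 41.3 to 61.4 CPM without LPS (427 counts), so the groups overlapped. The mean of 19 of the 27 was lower with LPS and that of 8 higher, or 21 and 6 without replicate 1 of primary microglia with LPS. The same tally was not made for other genes of such low counts, so it shows no fall particular to these members. Hmmr had 3 counts with LPS and 11 without LPS, and Ndc80 had 2 and 9. These correspond to levels 4.25-fold lower (95% counting interval 1.12 to 23.7) and 5.21-fold lower (1.08 to 49.6) with LPS. Ratios are given only for members with 3 or fewer counts in a group and more in the other. Their intervals cover the error of the pooled counts only, neither the spread between libraries nor this choice among the 27, so they are not tests. Kif2c had 7 counts with LPS and 2 without LPS, a ratio of 3.02 with an interval of 0.575 to 29.8, and Anln had 2 and 6. Bub3 and Mki67 together made up 47.0% of the summed level of the members with LPS and 27.6% without LPS. The remaining 39 members summed to a mean of 98.7 CPM with LPS and 121 CPM without LPS. Without replicate 1 of primary microglia with LPS the values with LPS were 46.0% and 98.3 CPM.

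When all 10 libraries shared 1 fit, all 41 members passed the filter, the 27 above, Aurkb and Hmmr among them, only through their BV2 counts, so the calls are given as a description. The calls in primary microglia were then 1 higher (Bub3) and 5 lower (Cenpa, Espl1, Aurkb, Hmmr and Cdk1), against 37.8% of all genes called, 20.6% higher and 17.2% lower. Mki67 was not called in that fit (adjusted p = 0.0936). Aurkb had 0, 2 and 2 counts in primary microglia with LPS and 6, 2 and 6 counts without LPS, so this call, like that of Hmmr, rests on few counts. With the 6 primary libraries alone and no filter on low counts, 3 of the 41 were called, Mki67 and Bub3 higher and Cenpa lower, against 26.8% of all 17333 genes.

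**Figure D4:**
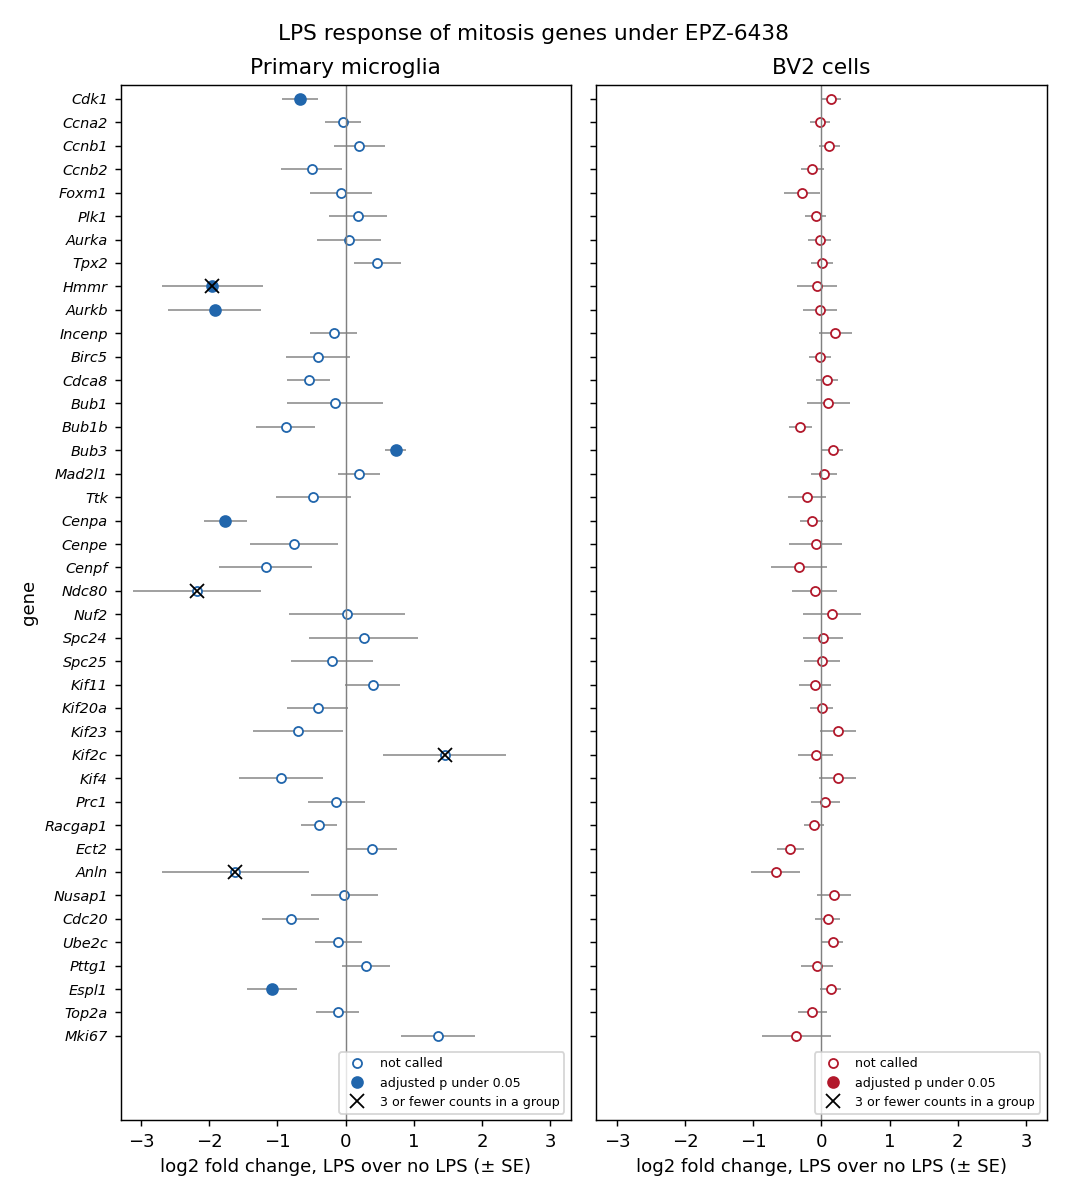
Fitted log2 fold change with LPS over without LPS for each mitosis gene in primary microglia (left, blue) and BV2 cells (right, red), with standard errors, from the fit of all 10 libraries, which tests all 41 members in both cell types. Filled points have an adjusted p under 0.05, and crosses mark folds that rest on 3 or fewer counts in a group. In primary microglia 6 points are filled, 1 right of 0 and 5 left of it, and in BV2 cells none, where the points also lie closer to 0.

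In BV2 cells all 41 members passed the filter, and none was called in either direction with LPS, against 5.2% of all 9321 genes tested (3.69% higher and 1.51% lower). DESeq2 also called none of the 41, against 3.41% of all genes. In edgeR 1 member, Ect2, had an unadjusted p under 0.05, against 1321 of all 9321 genes. The log2 changes ran from -0.63 to 0.28 with a median of 0.01, and the median gene was at -0.01. The 95% interval of the change (normal approximation) lay between -1 and 1 for 38 of the 41 genes and between -0.5 and 0.5 for 23.

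Ect2 had 53.4 and 63.4 CPM in BV2 cells with LPS, against 82.0 and 78.7 CPM without LPS, so the groups did not overlap, and its log2 change of -0.42 ± 0.16 was not called (adjusted p = 0.209). Bub1b had 84.6 and 90.4 CPM in BV2 cells with LPS, against 114 and 103 CPM without LPS, again with no overlap, and a change of -0.27 ± 0.14 that was not called either (adjusted p = 0.433). LPS libraries lay wholly above the others for 4 members (17.1% of all genes tested) and wholly below for 6 (24.9%). Cdk1 had 197 and 204 CPM in BV2 cells with LPS, against 179 and 184 CPM without LPS, slightly higher with LPS in both libraries. Mki67 had 37.3 and 58.0 CPM in BV2 cells with LPS, against 37.4 and 86.9 CPM without LPS, and the spread between replicates was greater than the difference between groups. Leaving out replicate 2 of BV2 cells with LPS left 5 members called lower (Anln, Kif11, Ttk, Bub1 and Ect2), against 6.5% of all genes called and 2.04% called lower. Leaving out replicate 1 of that group left Bub1 called higher, against 8.32% of all genes called, and leaving out replicate 1 of BV2 cells without LPS left Mki67 called lower, against 3.69%. A library left alone in its group is assumed there to vary like the other group.

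The LPS responses of the cell types were then compared directly, as the log2 change in BV2 cells minus that in primary microglia. This test shares its libraries with the comparisons above. It called 2 members higher and none lower, against 12.2% of all genes, 3.54% higher and 8.65% lower. An unadjusted p under 0.05 was found for 7 members, against 2605 of all 11626 genes. All 41 members entered this fit, but 27 of them did not pass the low-count filter in the primary libraries alone. Their part from primary microglia rests on few counts, so these numbers are given as a description. The members called were Cenpa, with a difference of 1.62 ± 0.36 (adjusted p = 0.00195), and Espl1, with 1.21 ± 0.40 (adjusted p = 0.0434). For Cenpa the levels were 78.2 and 86.2 CPM in BV2 cells with LPS, against 91.1 and 90.9 CPM without LPS, beside 1.57, 1.91 and 3.40 CPM in primary microglia with LPS, against 8.99, 9.40 and 6.33 CPM without LPS. For Espl1 they were 179 and 139.7 CPM in BV2 cells with LPS, against 156 and 135 CPM without LPS, beside 2.35, 2.55 and 1.42 CPM in primary microglia with LPS, against 4.87, 4.91 and 3.52 CPM without LPS. Both genes thus fell in primary microglia with LPS and were not called in BV2 cells. Bub3 (-0.57 ± 0.21, adjusted p = 0.0829), Mki67 (-1.73 ± 0.74, adjusted p = 0.232) and Cdk1 (0.81 ± 0.30, adjusted p = 0.0845) did not pass in this fit with all libraries. DESeq2 called 1 of the 41, Cenpa, against 9.82% of all genes. Without replicate 1 of primary microglia with LPS, Cenpa and Espl1 were called higher and Bub3 lower (adjusted p = 0.0359), against 16.6% of all genes. Bub3 was also called lower without replicate 1 of BV2 cells with LPS (adjusted p = 0.0369), Mki67 without replicate 1 of BV2 cells without LPS (-2.23, adjusted p = 0.0454), and Cdk1 was called higher without replicate 2 of primary microglia with LPS (1.11, adjusted p = 0.0254). With the replicate number as a block Bub3 (-0.56, adjusted p = 0.0371) and Mki67 (-1.68, adjusted p = 1.41e-04) were called lower, against 14.5% of all genes. The Espl1 difference was lost in DESeq2 (adjusted p = 0.0794) and without any of 6 of the 10 libraries, where its adjusted p ran from 0.0524 to 0.189.

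Further genes of the division cycle were read from lists that do not contain the 41. Their counts are to be read beside the shares of all genes called higher and lower. Between the cell types these shares were 30.7% and 43.1% with LPS and 32.5% and 41.5% without LPS. With LPS they were 21.4% and 17.8% in primary microglia and 3.69% and 1.51% in BV2 cells. In the test of the difference they were 3.54% and 8.65%. Of 71 other mitosis genes 69 were tested between the cell types: 64 were higher and 1 lower in BV2 cells with LPS, and 65 were higher and none lower without LPS. Tuba1b, an alpha-tubulin whose reads can be split with near-identical tubulin genes, had 1273 and 1062 CPM in BV2 cells with LPS and 1275 and 1184 CPM in BV2 cells without LPS, against 108, 133 and 125 CPM in primary microglia with LPS and 117, 94.8 and 120.0 CPM in primary microglia without LPS, and Nek2, a centrosome kinase, was at 76.8 ± 0.608 CPM in BV2 cells with LPS and 77.1 ± 11.8 CPM without LPS, against 1.79 ± 0.558 and 1.25 ± 0.144 CPM in primary microglia with and without LPS. With LPS in primary microglia 3 of the 20 tested were higher and none lower, against 21.4% and 17.8% of all genes. Melk, a kinase that peaks in mitosis, had 12.1, 12.4 and 14.7 CPM in primary microglia with LPS, against 1.50, 0.409 and 1.06 CPM without LPS, a rise of 3.64 ± 0.38 on the log2 scale (adjusted p = 2.73e-07). Trip13, the ATPase that takes Mad2 complexes apart, had 8.62, 8.29 and 6.52 CPM in primary microglia with LPS, against 2.25, 1.64 and 4.22 CPM without LPS, and Zwint, a kinetochore protein, 109.7, 125 and 129 CPM in primary microglia with LPS, against 82.8, 88.7 and 87.6 CPM without LPS. In BV2 cells 1 of 69 was higher with LPS, Ckap2l, a spindle protein, with 69.8 and 76.3 CPM in BV2 cells with LPS, against 46.5 and 43.0 CPM without LPS. In the test of the difference between responses 1 was higher (Ckap2l) and 2 were lower (Melk and Trip13).

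Of 18 condensin and cohesin genes, 17 were tested between the cell types, and 8 were higher and 5 lower in BV2 cells with LPS and 7 higher and 4 lower without LPS. Ncaph, a subunit of condensin I, which acts in mitosis, was higher by 4.77 with LPS and 3.88 without LPS, while the list's median was 0.70 with LPS and 0.21 without LPS. With LPS in primary microglia 2 of 15 were higher and 3 lower, and Ncapd3, a condensin II subunit, fell by 0.71, with 15.7, 11.8 and 12.5 CPM in primary microglia with LPS, against 22.1, 22.1 and 20.4 CPM without LPS. None of the 17 was called with LPS in BV2 cells by edgeR, none had an unadjusted p under 0.05, and none was called in the difference, with 3 at an unadjusted p under 0.05. Of 15 APC/C subunits and regulators, 5 were higher and 1 lower in BV2 cells with LPS and 8 higher and none lower without LPS, with medians of 0.38 and 0.47. Fbxo5, the inhibitor Emi1, and Ube2s, the chain-building enzyme, were higher by 4.38 and 2.07 with LPS and by 3.10 and 2.54 without LPS. With LPS in primary microglia 2 of 14 were higher, Cdc27 and Ube2s, and in BV2 cells none was called, with 1 at an unadjusted p under 0.05. The difference called none of the 15, with 3 at an unadjusted p under 0.05.

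DNA replication and G1/S genes were higher in BV2 cells for 32 of 33, both with and without LPS, with medians of 3.62 and 3.61. Mcm5, a subunit of the replicative helicase, had 323 and 279 CPM in BV2 cells with LPS and 341 and 301 CPM in BV2 cells without LPS, against 10.6, 13.1 and 12.8 CPM in primary microglia with LPS and 8.99, 13.5 and 14.1 CPM in primary microglia without LPS. With LPS in primary microglia 4 of 21 were higher and 3 lower, against 21.4% and 17.8% of all genes. Pcna, the sliding clamp, had 111, 122 and 129 CPM in primary microglia with LPS, against 47.2, 48.6 and 76.0 CPM without LPS, a rise of 1.06 ± 0.16 (adjusted p = 7.29e-05). Rfc3, a clamp-loader subunit, and Tyms, thymidylate synthase, rose by 1.07 and 1.00. In BV2 cells none of the 33 was called with LPS by edgeR, with 2 at an unadjusted p under 0.05, and the difference called 3 lower, Pcna, Rfc3 and Mcm6.

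Among 17 G1 cyclins and CDK inhibitors, 8 were higher and 7 lower in BV2 cells with LPS and 10 higher and 6 lower without LPS. Cdkn1a, the inhibitor p21, was the member of this list with the smallest p in both: it had 22.8 and 17.7 CPM in BV2 cells with LPS and 14.0 and 9.91 CPM in BV2 cells without LPS, against 442, 446 and 449.9 CPM in primary microglia with LPS and 84.7, 87.9 and 79.9 CPM in primary microglia without LPS. With LPS in primary microglia 4 of 14 were higher and 5 lower. Cdkn1a rose there by 2.39 ± 0.11 on the log2 scale (adjusted p = 1.45e-12), and the pocket protein Rbl1 and the G1 kinase Cdk6 rose by 2.32 and 2.26. In BV2 cells 1 of 15 was called with LPS: cyclin D1, from Ccnd1, fell by 0.89 on the log2 scale, with 51.4 and 38.9 CPM in BV2 cells with LPS, against 90.4 and 80.6 CPM without LPS. The difference called 3 lower, Rbl1, Cdkn1a and Cdk6. Of 18 MuvB, E2F and Myb regulators, 9 were higher and 2 lower in BV2 cells, both with and without LPS. Mybl2, the partner of MuvB at mitotic promoters, had 21.1 and 18.0 CPM in BV2 cells with LPS and 35.2 and 37.0 CPM in BV2 cells without LPS, against 0.392, 0.319 and 0 CPM in primary microglia with LPS and 0.749, 0.818 and 1.06 CPM in primary microglia without LPS, and fell with LPS in BV2 cells by 0.85 on the log2 scale (adjusted p = 0.0257). In primary microglia with LPS 3 of 15 were higher, with E2f4 and E2f5 among them, and 1 was lower, Tfdp2. The difference called 1 lower, E2f4. Of 17 p53-linked genes, 4 were higher and 6 lower in BV2 cells with LPS and 4 higher and 8 lower without LPS. With LPS 7 of 17 were higher and 5 lower in primary microglia, and 4 of 12 were higher and 1 lower in BV2 cells, and the difference called 3 higher and 1 lower. Gadd45b, a stress-induced gene, had 26.9 and 33.0 CPM in BV2 cells with LPS and 15.3 and 17.8 CPM in BV2 cells without LPS, against 116, 143 and 139 CPM in primary microglia with LPS and 19.9, 18.0 and 12.0 CPM in primary microglia without LPS.

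Without replicate 1 of primary microglia with LPS, the counts of these lists with LPS in primary microglia moved most for condensin and cohesin genes, to 2 higher and 6 lower of 16, and for DNA replication and G1/S genes, to 4 higher and 1 lower of 22. The others were 3 higher and none lower of 21 other mitosis genes, 2 and 1 of 14 APC/C genes, 4 and 6 of 15 G1 cyclins and CDK inhibitors, 4 and 1 of 15 MuvB, E2F and Myb regulators, and 7 and 6 of 17 p53-linked genes. The genes named above as higher or lower in that comparison were still called. Without that library 25.1% of all genes were called higher with LPS in primary microglia and 23.2% lower. In BV2 cells against primary microglia with LPS these shares were 31.7% and 41.6%, and in the difference of responses 7.58% and 9.07%. In BV2 cells against primary microglia with LPS the counts became 62 higher and 1 lower for other mitosis genes, 10 and 4 for condensin and cohesin genes, 33 and 0 for DNA replication and G1/S genes, and 4 and 5 for p53-linked genes, and those of the remaining lists did not move. In the difference of responses Trip13 (adjusted p = 0.0556) and E2f4 (adjusted p = 0.0637) were no longer called, condensin and cohesin genes had 5 higher, DNA replication and G1/S genes 1 higher and 4 lower, and G1 cyclins and CDK inhibitors 1 higher and 3 lower.

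Markers of other cell types were read as whole lists. In primary microglia oligodendrocyte lineage markers summed to 197 to 247 CPM with LPS and 223 to 227 CPM without LPS, neuronal markers to 75.6 to 89.3 and 85.4 to 87.1 CPM, and fibroblast markers to 82.3 to 138 and 106 to 323 CPM. Endothelial and mural markers summed to 24.9 to 26.2 CPM with LPS and 21.8 to 38.4 CPM without LPS, neutrophil and monocyte markers to 3.13 to 6.38 and 1.64 to 4.50 CPM, and lymphocyte markers to 4.31 to 6.52 and 7.36 to 10.9 CPM. The ranges of the astrocyte, oligodendrocyte, neuronal, fibroblast, and endothelial and mural lists overlapped between primary groups, whereas those of lymphocyte markers did not. The lymphocyte sums rest on 50 counts with LPS and 70 without LPS. Overlapping sums can hide opposite changes of single markers. With LPS 1 of 8 astrocyte markers tested was higher and 2 lower, and 1 of 8 oligodendrocyte lineage markers was higher and 1 lower. Without replicate 1 of primary microglia with LPS these counts were 1 and 4, and 2 and 3. The shares of all genes were 21.4% and 17.8%, or 25.1% and 23.2% without that library. In BV2 cells all 6 neuronal and all 6 lymphocyte markers were at 0, and 5 of 6 fibroblast markers. Oligodendrocyte lineage markers summed there to 25.1 to 25.5 CPM with LPS and 28.4 CPM in both libraries without LPS. Astrocyte markers summed there to 38.0 to 41.6 CPM with LPS and 41.6 to 43.0 CPM without LPS, of which Aldoc, at 39.8 ± 2.54 and 42.2 ± 0.771 CPM, made up nearly all. Endothelial and mural markers summed to 87.3 to 98.4 CPM in BV2 cells with LPS and 100.5 to 128 CPM without LPS, mostly Kdr at 91.6 ± 7.64 and 114 ± 19.4 CPM. Microglial markers summed to 1915 to 1995 CPM in BV2 cells with LPS and 2084 to 2189 CPM without LPS, against 2218 to 2528 CPM and 2490 to 2853 CPM in primary microglia, and all 12 were detected in every group. Of the 12, 4 were called higher and 5 lower in BV2 cells with LPS, against 30.7% and 43.1% of all genes. Without replicate 1 of primary microglia with LPS these counts were 5 and 5. In the comparison without LPS 4 were higher and 7 lower, against 32.5% and 41.5% of all genes. Tmem119, Fcgr3, C1qb and Tyrobp were the higher ones in both, by 2.40, 1.54, 0.40 and 0.49 on the log2 scale with LPS and by 2.62, 0.47, 1.04 and 0.35 without LPS. Cx3cr1 and C1qa were lower by the most in both. Cx3cr1 had 5.37 and 3.38 CPM in BV2 cells with LPS and 2.81 and 2.97 CPM in BV2 cells without LPS, against 132, 117 and 115 CPM in primary microglia with LPS and 129.6, 141 and 119.6 CPM in primary microglia without LPS, and C1qa had 31.5 ± 3.89 and 40.4 ± 3.69 CPM in BV2 cells with and without LPS, against 425 ± 84.3 and 406 ± 63.9 CPM in primary microglia.

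Within BV2 cells the replicates of a group differed in some members, in a like way with and without LPS. Replicate 2 over replicate 1, as log2 with 0.5 CPM added, was highest for Cenpe, at 1.21 with LPS and 1.24 without LPS. Next came Bub1 with LPS, at 1.09, and Mki67 without LPS, at 1.20 (0.63 with LPS), and then Cenpf, at 1.03 with LPS and 1.07 without LPS. The lowest were Kif2c with LPS, at -0.42, and Foxm1 without LPS, at -0.56, and Incenp was low in both groups, at -0.41 with LPS and -0.55 without LPS. Over the 41 genes the ratios of the 2 groups had a Pearson correlation of 0.78 and a Spearman correlation of 0.83, a description across genes that share libraries, and genes are not independent replicates. The ratio was also related to exon length among the members, with Pearson correlations of 0.48 in each group, but little among the 8991 genes tested in BV2 cells that have a length, at 0.03 with LPS and 0.14 without LPS. With 2 libraries a group, this pattern was not tested, and whether the replicate numbers mark a shared culture or day is not given in the labels.

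**Figure D5:**
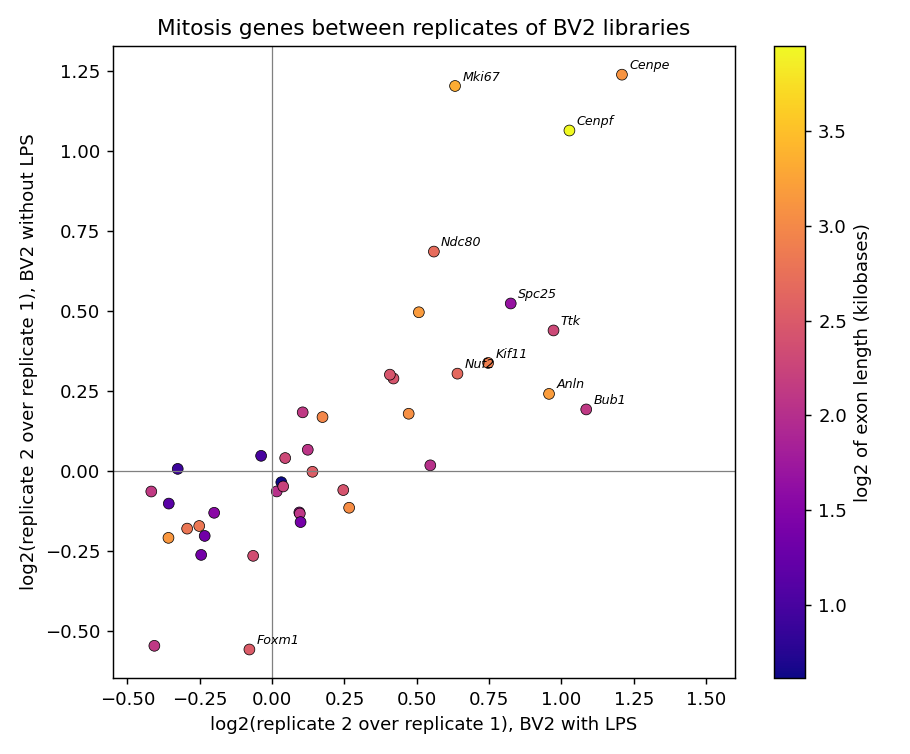
Log2 ratio of replicate 2 over replicate 1 for each mitosis gene in BV2 cells with LPS (x axis) and without LPS (y axis), with 0.5 CPM added, coloured by exon length. Genes whose ratio exceeds 0.55 in size in either group are named. Cenpe, Cenpf and Mki67, which have long exons, lie at the upper right, and Foxm1 lies at the bottom.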

How the data were processed

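The deposited files hold raw read counts per gene for each library, unstranded and for each strand, as STAR writes them. Per the submitters' processing notes, reads were handled with CASAVA 1.8.2, Trimmomatic 0.33, STAR 2.5.1 and DESeq2 on the mouse build mm10. No source used here names the annotation behind them. Libraries were depleted of ribosomal RNA and strand-specific, per the labels' protocols, and reverse-strand counts were used. Between 70.4% and 79.5% of reads named no gene, and these, with reads of several matches (7.64% to 11.8%), stayed out of library sizes and tests. The reads that named a gene on the other strand were 0.682% to 2.21%.

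Counts were tested with edgeR 4.0.16 (R 4.3.3): TMM scaling, a filter on low counts (filterByExpr, at least 10 counts in enough libraries and 15 in all), robust quasi-likelihood fits and Benjamini-Hochberg adjustment over all genes tested, with calls at 0.05. The LPS comparisons used the libraries of their cell type, and the other comparisons all 10 libraries. The fits were tested on simulated data with known changes in well-counted genes of a common spread. That setting does not cover genes of low counts, such as most members in primary microglia, or a library that stands apart. DESeq2 1.42.0, other scalings, filters, strand choices, sample sets, a replicate block and leaving out each library were the alternatives. Exon lengths come from GENCODE M21, and promoters from RefSeq on GRCm38.p6, with no entry used for 7 members. Genes with values in every library were the member highest per length in each role group, those with the smallest p in each comparison and 6 set names. Genes outside the members came from lists, at most the 3 with the smallest p a list and comparison, plus cell type markers. The 41 members and all lists were chosen with earlier results of these data known.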

Additional observations from a re-analysis of the deposited data

Results flagged for a closer look

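The LPS response of Cenpa differed between the cell types by 1.62 on the log2 scale (BV2 minus primary, adjusted p = 0.00195 in edgeR), the difference itself being tested. All 3 primary libraries with LPS were below all 3 without LPS, and both BV2 libraries with LPS were below both without LPS, by much less. The response of Espl1 differed by 1.21 (adjusted p = 0.0434), close to the threshold, and its levels in primary microglia rest on 6, 8 and 5 counts with LPS and 13, 12 and 10 counts without LPS. For Cdk1 both BV2 libraries with LPS were above both without LPS, while all 3 primary libraries with LPS were below all 3 without LPS, a difference of 0.809 on the log2 scale. The test of that difference did not call it (adjusted p = 0.0845 in edgeR).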

How the results depend on the processing

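The counts of members higher in BV2 cells, 40 with LPS and 41 without LPS, were the same under every alternative run. The fold changes followed across the alternatives, 41 in each comparison of the cell types, 5 with LPS in primary microglia, 2 with LPS in BV2 cells and 5 in the difference, kept their sign. In primary microglia, LPS called 2 of 14 members higher and 2 lower, against 21.4% and 17.8% of all genes. Members called lower were 1 of 41 with no filter on low counts (12% of all genes) and 1 of 32 with a filter at 1 CPM (15%). They were 1 of 14 with DESeq2 (12.8%) and 5 of 41 with all 10 libraries in the fit (17.2%), where 1 was called higher (20.6%). Leaving out each library gave 1 to 2 higher (17.6% to 25.1% of all genes) and 1 to 2 lower (12.8% to 23.2%). In BV2 cells leaving out a library leaves 1 in its group, and the members called then changed. Bub1, not called with all libraries, was called in either direction depending on the library left out. For the difference of responses it gave 1 to 3 higher and 0 to 1 lower, and DESeq2 gave 1 higher. Upper-quartile scaling moved the median of all genes with LPS in primary microglia to -0.23 and that of members tested to -0.33, and Cdk1 was then called lower (-0.88, adjusted p = 0.0304) and its difference higher (1.00, adjusted p = 0.0295). Over all genes, calls with LPS in BV2 cells were 485, against 318 with DESeq2 and 800 without replicate 1 of BV2 cells with LPS. The replicate numbers are not treated as pairs, since the labels do not say that they pair samples. Over all genes same-numbered libraries deviated together weakly (correlations 0.18, -0.08 and 0.19 in primary microglia and 0.16 in BV2 cells). Among the 41 members, however, the replicate ratios of the BV2 groups had a Pearson correlation of 0.78, and whether replicates share an effect was not tested. With a replicate block the counts of members called with LPS were unchanged, and the difference called 2 lower, Bub3 (-0.56, adjusted p = 0.0371) and Mki67 (-1.68, adjusted p = 1.41e-04). The low counts of most members in primary microglia limit what could be tested there.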
